A study of Mus musculus with 2 samples.

Results

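The CXC chemokine genes of primary mouse fibro-adipogenic progenitors (FAPs) were compared between a culture treated with platelet-rich plasma (PRP) and a culture treated with vehicle. They comprise Cxcl1, Cxcl2, Cxcl3, Cxcl5, Cxcl9, Cxcl10, Cxcl12, Cxcl14 and Cxcl16, together with Cx3cl1, the CX3C chemokine. The genes were picked by name and make up 10 of the 44291 genes listed. FAPs are the mesenchymal cells of skeletal muscle from which intramuscular fat arises. The cells were of wild-type genotype and, per the study's methods, were sorted from digested hind limb muscle. How many animals gave the cells of each culture is not given in the sources used here.

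Both cultures were kept under adipogenic differentiation, with insulin at 10 μg/ml, dexamethasone at 0.25 μM, IBMX at 0.5 mM and FBS at 20% in the medium. The control culture therefore also carried dexamethasone, a glucocorticoid that restrains the transcription of many inflammatory genes. PRP is the treatment given in the labels, and the study's text speaks of exosomes prepared from human PRP. RNA-seq was performed on 1 library per group. Every difference is hence a difference between 2 libraries, the effect of the treatment and the difference between the cultures cannot be told apart, and no p-value is given.

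Chemokines are small secreted proteins that guide leukocytes and other cells through G protein-coupled receptors. Members that carry the residues Glu-Leu-Arg ahead of the CXC cysteines, CXCL1, CXCL2, CXCL3 and CXCL5, act through CXCR2 and draw neutrophils, and their genes are classic targets of NF-κB. CXCL9 and CXCL10 act through CXCR3 on activated T cells and NK cells and are induced by interferons. CXCL12 is made constitutively by mesenchymal stromal cells and retains CXCR4-bearing cells such as hematopoietic stem cells. CXCL14 is also largely constitutive, whereas CXCL16 and CX3CL1 are made as membrane-anchored proteins that ADAM proteases release.

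The deposited values are FPKM (reads scaled by exon length and by the assigned reads of the library). The totals of assigned reads, recovered from the values, were 40120843 with PRP and 34139741 for the control. For all 10 chemokine genes the recovered reads were whole numbers. Each ratio of FPKM below carries an exact Clopper-Pearson 95% interval computed on fragments (reads divided by 2), which covers counting error only. The log2 fold change is on the log2(FPKM + 1) scale and understates the change of low genes. It was called for 7 of the 10 genes, those whose mean over both libraries reached 1 FPKM. Cxcl3, Cxcl10 and Cx3cl1 were under this level, and Cxcl2 and Cxcl9 passed it only through the PRP library.

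Of the 7 chemokine genes above the filter, 4 were at least 2-fold higher in the PRP library, namely Cxcl1, Cxcl2, Cxcl5 and Cxcl9. Across all 13401 genes above the filter, 2.00% were called in this direction. None of the 7 was at least 2-fold lower, where 0.828% of all genes were called. Of the 4 genes called higher, Cxcl2 and Cxcl9 passed the filter only through the PRP library, where they were higher. The 10 genes were also chosen with earlier results of these data known, so these counts describe them and are no test. Without a filter or pseudocount, the interval of the ratio lay above 1 for 7 of the 10 genes and below 1 for Cxcl12 alone, and it included 1 for Cxcl14 and Cx3cl1. Among all 26406 genes with whole reads the intervals of 14.6% lay above 1 and those of 13.9% below 1. Among the 12369 of them with a mean of at least 1 FPKM, 26.1% lay above 1 and 26.1% below 1, and of the 7 chemokine genes at that level 5 lay above and 1 below. All 6 neutrophil-attracting and interferon-induced genes were higher in the PRP library, with ratios between 3.53 and 17.7, whereas 3 of the 4 remaining genes had a ratio below 1.

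**Figure D1:**
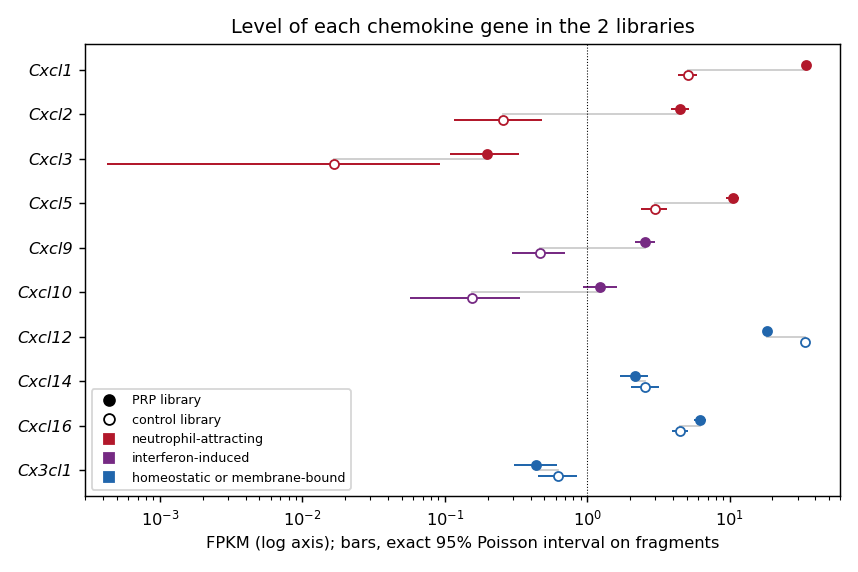
FPKM of each chemokine gene on a log axis in the PRP library (filled points) and the control library (open points), with exact 95% Poisson intervals on fragments as bars and a dotted line at 1 FPKM. The intervals of both libraries are apart for the 6 genes from Cxcl1 to Cxcl10 and for Cxcl16, with the PRP library to the right. They are apart the other way for Cxcl12.

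Among the neutrophil-attracting genes, Cxcl1 (ENSMUSG00000029380, chromosome 5, 90891241 to 90893115, plus strand) was the most abundant. It had 34.2 FPKM with PRP against 5.06 FPKM in the control, from 2572 and 324 reads. This placed it at rank 1580 of all genes by level with PRP and at rank 6929 in the control. Between the libraries this gave a ratio of 6.75 (95% interval 5.73 to 8.004), and its log2 fold change of 2.54 was the 7th highest of the 13401 genes above the filter.

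Cxcl2 (ENSMUSG00000058427, chromosome 5, 90903871 to 90905938, plus strand), the gene of the protein also known as MIP-2, was near absent from the control library. It had 4.51 FPKM with PRP against 0.255 FPKM in the control, from 374 and 18 reads. The ratio of 17.7 (9.12 to 39.3) was the highest of the 10 genes. The 18 control reads set the width of its interval, and its log2 fold change of 2.13 ranked 15th.

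Cxcl5 (ENSMUSG00000029371, chromosome 5, 90759360 to 90761624, plus strand), whose product is known as LIX, had the lowest ratio of the neutrophil-attracting genes. It had 10.5 FPKM with PRP against 2.97 FPKM in the control, from 785 and 189 reads. The ratio was 3.53 (2.82 to 4.47), and the log2 fold change of 1.53 ranked 79th. The interval of Cxcl5 lay wholly below those of Cxcl1 and Cxcl2. In the control library Cxcl1 stood 1.70-fold above Cxcl5, and in the PRP library 3.26-fold. Per length of the longest protein-coding transcript these become 2.83-fold and 5.41-fold.

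Cxcl3 (ENSMUSG00000029379, chromosome 5, 90786103 to 90789600, plus strand) was barely expressed. It had 0.1995 FPKM with PRP against 0.0167 FPKM in the control. These levels rested on 28 reads and on 2 reads, the latter worth 1 fragment. The ratio of 11.9 therefore has an interval from 1.81 to 503.7, which gives a direction but hardly a size. Its level also depends on the exon length used, since an annotated retained-intron transcript makes all 3498 bases of the gene count as exon. Per kilobase of the longest protein-coding transcript (1016 bases) Cxcl3 would have 0.687 and 0.0577 FPKM. Of the 50-base stretches of Cxcl3, 6.31% also occur in Cxcl2, as do 3.28% of those of Cxcl2 in Cxcl3, so a small part of their reads could be split between them.

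Promoter sequences from RefSeq (GRCm38.p6), from 250 bases before to 50 bases after the annotated start, were held for 8 of the 10 genes. The NF-κB consensus was searched on both strands. It matched the promoters of Cxcl1, Cxcl2, Cxcl3 and Cxcl10, 4 of the 8, and 5.14% of the 27025 genes with a promoter. Cxcl1, Cxcl2 and Cxcl3 carried the same 10 letters, GGGAATTTCC, which 29 of those genes (0.107%) held on either strand. These letters were singled out after the promoters had been read. The 30-base stretches are shown because the sites of these 3 genes can be compared letter by letter with each other and with that of Cxcl10. The match is in capitals, and each stretch reads 5′ to 3′ along the strand of the gene.
Cxcl1, chr5:90891164-90891193, plus strand: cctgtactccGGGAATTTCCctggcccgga
Cxcl2, chr5:90903792-90903821, plus strand: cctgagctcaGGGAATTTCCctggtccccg
Cxcl3, chr5:90786018-90786047, plus strand: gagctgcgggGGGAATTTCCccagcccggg
Cxcl10, chr5:92348973-92349002, minus strand: cggtttacagGGGACTTCCCtcgggttgcg
The matches began 71, 97, 73 and 103 bases upstream of the RefSeq start of Cxcl1, Cxcl2, Cxcl3 and Cxcl10. Cxcl10 had a further match 159 bases upstream. A match is a description of the letters in this window and says nothing of which factor was bound in these cells.

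Of the interferon-induced genes, Cxcl9 (ENSMUSG00000029417, chromosome 5, 92321347 to 92328079, minus strand) was the more abundant. Cxcl9 had 2.56 FPKM with PRP against 0.466 FPKM in the control, from 310 and 48 reads. The ratio was 5.50 (3.56 to 8.84), and the log2 fold change of 1.28 ranked 134th. Cxcl10 (ENSMUSG00000034855, chromosome 5, 92346638 to 92348889, minus strand), the gene of IP-10, had 1.24 FPKM with PRP against 0.156 FPKM in the control, from 112 and 12 reads. Its ratio of 7.94 (3.43 to 22.6) had an interval that overlapped that of Cxcl9, so their ratios could not be told apart at this depth. Its log2 fold change of 0.95, from a mean of 0.698 FPKM, lay under the filter and just under 2-fold on that scale.

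The interferon-stimulated response element was searched on both strands as a pair of GAAA with any 2 bases between them. It lay 213 bases upstream of the start of Cxcl10 and was held by 3.99% of genes with a promoter. The only other chemokine promoter with a match was that of Cxcl14, 172 bases upstream. An absent match says only that these letters are not in this window. Exons of Art3 on the opposite strand cover 5.91% of the exon length of Cxcl10. Art3 itself had 0.551 FPKM with PRP against 0.358 FPKM in the control.

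**Figure D2:**
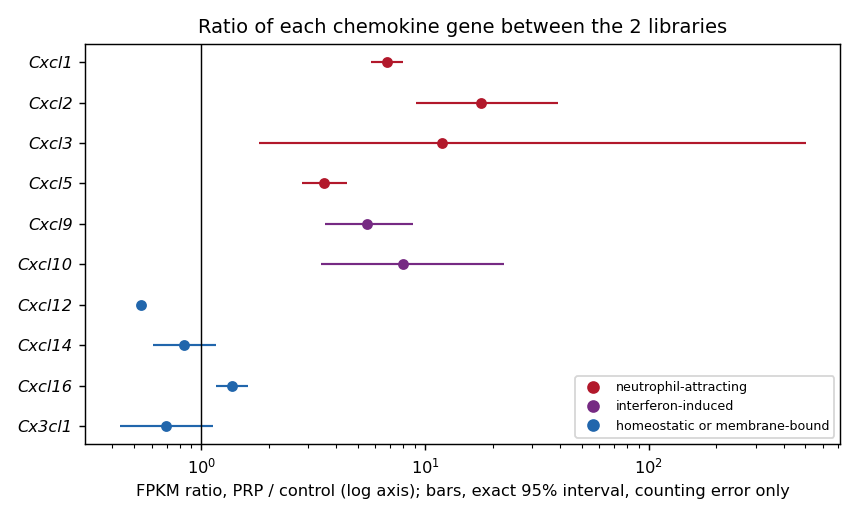
Ratio of FPKM, PRP over control, of each chemokine gene on a log axis, with exact 95% intervals that cover counting error only and a line at 1. The intervals of the 6 genes from Cxcl1 to Cxcl10 and of Cxcl16 lie right of the line, that of Cxcl12 lies left of it, and those of Cxcl14 and Cx3cl1 cross it.

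Cxcl12 (ENSMUSG00000061353, chromosome 6, 117168535 to 117181367, plus strand) was the gene of this family with the most reads and was lower in the PRP library. It had 18.2 FPKM with PRP against 33.7 FPKM in the control, from 5963 and 9420 reads. The ratio was 0.539 (0.514 to 0.564). The log2 fold change of -0.86 did not reach 2-fold and was the 212th lowest of the 13401 genes. In bulk RNA, fewer cells of a type and less RNA per cell cannot be told apart. All 6 FAP markers examined had an interval below 1 in the same comparison, as had 26.1% of all genes with a mean of at least 1 FPKM. The markers summed to 366.2 FPKM with PRP against 539.5 FPKM in the control. Among them Pdgfra, the receptor by which FAPs are recognised, had a ratio of 0.710 (0.680 to 0.740) and Col1a1, which with Thy1 carries most of the sum, had a ratio of 0.542 (0.531 to 0.553). Ly6a and Dcn were nearer to no change, with ratios of 0.902 (0.837 to 0.972) and 0.901 (0.819 to 0.992). Their part in the lower Cxcl12 was not tested.

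Cxcl16 (ENSMUSG00000018920, chromosome 11, 70453983 to 70459984, minus strand), which encodes the membrane-anchored ligand of CXCR6, was slightly higher. It had 6.20 FPKM with PRP against 4.52 FPKM in the control, from 751 and 466 reads. The ratio was 1.37 (1.16 to 1.62), with a log2 fold change of 0.38. Exons of Zmynd15 on the opposite strand cover 18.3% of the exon length of Cxcl16. Zmynd15 had 1.62 FPKM with PRP against 1.06 FPKM in the control, a ratio of 1.53 (1.15 to 2.03). The kit marks strand, but whether the counting used it is not stated, so the 2 genes may share reads.

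Cxcl14 (ENSMUSG00000021508, chromosome 13, 56288643 to 56296551, minus strand) had 2.16 FPKM with PRP against 2.57 FPKM in the control, from 158 and 160 reads. A difference was not detectable at this depth, as the ratio of 0.840 had an interval from 0.608 to 1.16. Cx3cl1 (ENSMUSG00000031778, chromosome 8, 94772009 to 94782427, plus strand), the gene of fractalkine, had 0.438 FPKM with PRP against 0.626 FPKM in the control, from 69 and 84 reads. Its ratio of 0.699 (0.432 to 1.12) likewise included no change, but counted on reads in place of fragments its interval, from 0.501 to 0.973, did not. These intervals still allow a decrease of Cx3cl1 to a ratio of 0.432, so neither gene is shown to be unchanged.

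The make-up of the chemokine mRNA differed between the libraries. The summed FPKM of the 10 genes was 80.2 with PRP and 50.4 in the control. In the control library Cxcl12 held 67.0% of this sum and Cxcl1 held 10.05%. In the PRP library Cxcl1 held 42.6% and Cxcl12 held 22.7%. Cxcl1 and Cxcl12 thus changed places at the head of the family. The level of Cxcl1 was 0.150 times that of Cxcl12 in the control library and 1.88 times in the PRP library, a ratio within a library that does not depend on how libraries are scaled. It does depend on the exon lengths used, as do the shares above. Per length of the longest protein-coding transcript it would be 0.203 in the control library and 2.55 in the PRP library.

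By group, the neutrophil-attracting genes summed to 49.4 FPKM with PRP against 8.30 FPKM in the control, a ratio of 5.95. The interferon-induced genes summed to 3.801 and 0.622 FPKM, a ratio of 6.11. These sums are carried by Cxcl1 and Cxcl9, and the difference between the groups' ratios was not tested. The homeostatic and membrane-bound genes summed to 27.0 and 41.5 FPKM, a ratio of 0.650, which mostly reflects Cxcl12. Neutrophil-attracting genes made up 61.6% of the sum with PRP and 16.5% in the control. The median log2 fold change of the genes above the filter was 2.13 for the 3 neutrophil-attracting genes and -0.18 for the 3 homeostatic or membrane-bound genes. It was 0.01 over all genes above the filter. With all 10 genes, including those under the filter, the group medians were 1.83 for the neutrophil-attracting, 1.12 for the interferon-induced and -0.18 for the homeostatic or membrane-bound genes.

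**Figure D3:**
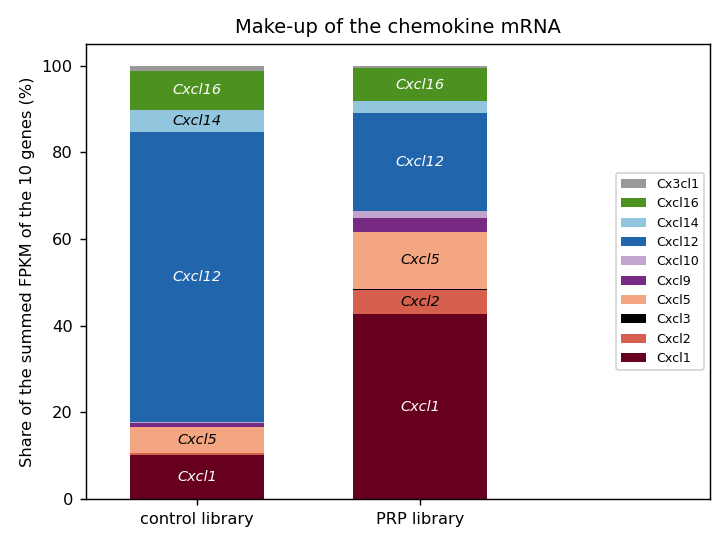
Share of each chemokine gene in the summed FPKM of the 10 genes, in percent, in the control library (left bar) and the PRP library (right bar), with genes stacked in the order of the legend. Cxcl12 fills 67.0% of the control bar and 22.7% of the PRP bar, and Cxcl1 fills 10.05% and 42.6%.

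The order of the levels was examined with exact Poisson intervals on fragments. In the PRP library it ran Cxcl1, Cxcl12, Cxcl5, Cxcl16, Cxcl2, Cxcl9, Cxcl14, Cxcl10, Cx3cl1 and Cxcl3. Only Cxcl9 and Cxcl14, and Cx3cl1 and Cxcl3, were neighbours with overlapping intervals. In the control library it ran Cxcl12, Cxcl1, Cxcl16, Cxcl5, Cxcl14, Cx3cl1, Cxcl9, Cxcl2, Cxcl10 and Cxcl3. There the intervals of Cxcl1 and Cxcl16 overlapped, as did those of Cxcl5 and Cxcl14 and of every neighbouring pair from Cx3cl1 down. The low end of the family was thus not resolved in the control library. Per kilobase of the longest protein-coding transcript, the level of Cxcl1 would be 67.3 FPKM with PRP against 9.96 FPKM in the control, since its deposited length of 1875 bases includes a retained-intron transcript and the coding transcript has 953 bases. The ratio between the libraries is not touched by this choice. In the PRP library Cxcl3 and Cx3cl1 would change places, and Cxcl12 would still follow Cxcl1, at 26.4 FPKM.

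All 6 inducible genes lie on chromosome 5 in 2 clusters (GRCm38, mm10). Cxcl5, Cxcl3, Cxcl1 and Cxcl2 span 146.6 kb, with Cxcl1 and Cxcl2 starting 12.6 kb apart. Cxcl9 and Cxcl10 start 20.8 kb apart. Of the homeostatic and membrane-bound genes, Cx3cl1 lies on chromosome 8 between the CC chemokine genes Ccl22 and Ccl17, and Cxcl12, Cxcl16 and Cxcl14 lie on chromosomes 6, 11 and 13 with no other chemokine gene within 100 kb. The other genes between or within 100 kb of the 10 chemokine genes numbered 45, of which 16 passed the filter, and none of these 16 was at least 2-fold higher or lower, which is near the 2.00% and 0.828% of all genes and is no result about the neighbours. Their log2 fold changes lay between -0.24 (Scarb2) and 0.46 (Nup54), with Naaa, Gm43599, Pelp1, Arrb2, Med11, Psmb6, Gm10418, Pld2, Arl2bp, Coq9, Polr2c, Dok4, Sdad1 and Zmynd15 between them. Beside Cxcl9 and Cxcl10, the nucleolar gene Sdad1 had 12.5 FPKM with PRP against 9.75 FPKM in the control (ratio 1.28, interval 1.19 to 1.38). The nuclear pore gene Nup54 had 11.7 and 8.25 FPKM (ratio 1.42, 1.26 to 1.59), and Scarb2, a lysosomal membrane protein gene, had 12.7 and 15.2 FPKM (ratio 0.836, 0.780 to 0.897). Around Cxcl1, Cxcl2, Cxcl3 and Cxcl5 none of 7 other genes passed the filter, and 5 of them had no read in either library. Mthfd2l, named after its values were seen, had 0.746 and 1.102 FPKM (ratio 0.677, 0.515 to 0.888).

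**Figure D4:**
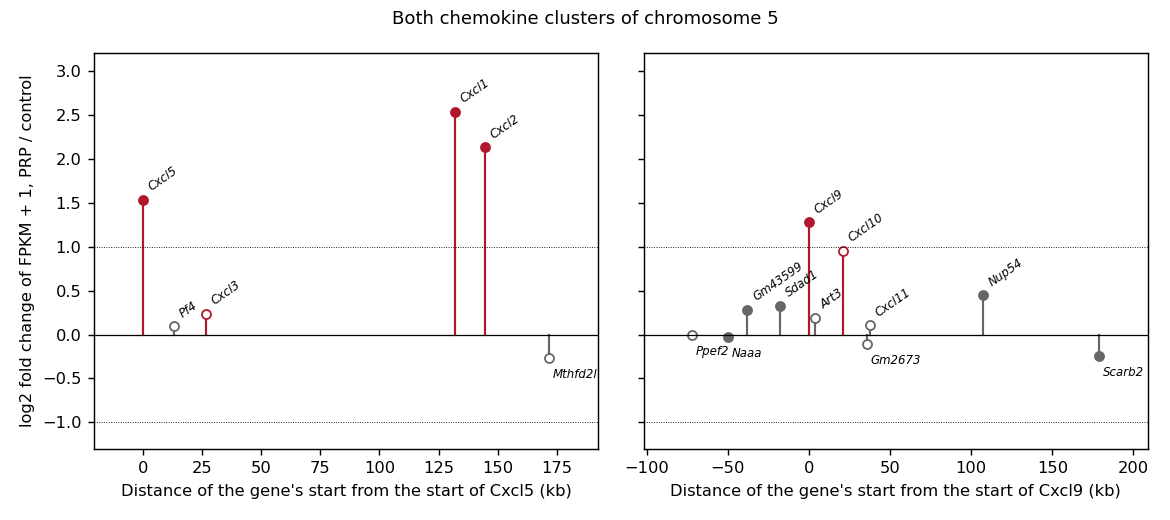
Log2 fold change of FPKM + 1, PRP over control, of the genes with reads in and around both chemokine clusters of chromosome 5, against the distance of each gene's start from that of Cxcl5 (left) or Cxcl9 (right) in kb. Chemokine genes examined here are red, other genes grey, open points have a mean under 1 FPKM, and dotted lines mark 2-fold. Cxcl1, Cxcl2, Cxcl5 and Cxcl9 lie above the upper dotted line and no other gene does.

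The remaining mouse CXC chemokine genes were silent or nearly so. Cxcl11, which neighbours Cxcl10, had 22 reads with PRP against 8 in the control, and the interval of its ratio from 0.693 to 10.08 included no change. Counted on reads in place of fragments, the interval of Cxcl11, from 1.003 to 6.08, did not. Cxcl13 had 4 and 2 reads, Cxcl17 had 0 and 1, and Cxcl15 had none. The platelet chemokine genes Pf4 and Ppbp, which lie between Cxcl5 and Cxcl3, had 2 reads and none in the PRP library and none in the control library. For Ppbp the count of 0 in the PRP library allows up to 3 fragments, or 0.138 FPKM. The libraries were aligned to the mouse genome, so these values do not measure human platelet RNA.

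The receptors through which these chemokines act were nearly absent from the FAPs. No read fell on Cxcr1, Cxcr2, Cxcr3, Ackr1 or Ackr2 in either library. Cxcr4 had 2 reads in each library, Cxcr5 had 0 and 2, and Cxcr6 had 2 and 0. Cx3cr1, the receptor of fractalkine, had 0.288 FPKM with PRP against 0.364 FPKM in the control, with an interval of the ratio from 0.445 to 1.40. The scavenging receptors Ackr3, which takes up CXCL12, and Ackr4, which takes up CC chemokines, were the receptor genes above the filter. Ackr3 had 1.38 FPKM with PRP against 0.945 FPKM in the control (ratio 1.47, interval 1.04 to 2.09). Ackr4 had 1.098 and 1.23 FPKM (ratio 0.892, 0.684 to 1.17). Neither reached 2-fold.

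Genes that act upstream of the chemokine genes or in feedback were taken from general knowledge as lists. Of 16 genes for NF-κB subunits and feedback, 15 passed the filter, 2 were at least 2-fold higher and none was lower by that measure, where 2.00% and 0.828% of all genes were called. Of the 15, 14 had a log2 fold change above 0, as had 50.9% of all genes above the filter. Their median log2 fold change was 0.36. The genes that were at least 2-fold higher encode feedback inhibitors. Tnfaip3, which encodes A20, had 5.88 FPKM with PRP against 1.32 FPKM in the control (ratio 4.45, interval 3.76 to 5.30). Nfkbie, which encodes IκBε, had 6.05 and 1.93 FPKM (ratio 3.13, 2.503 to 3.94). Nfkbia, which encodes IκBα, had 21.8 and 10.97 FPKM (ratio 1.99, 1.74 to 2.28). The kinase genes Chuk and Ikbkb had ratios of 0.939 (0.857 to 1.03) and 1.01 (0.934 to 1.0998), and Ikbkg, which encodes the scaffold NEMO, had 1.104 (1.06 to 1.15).

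Among interferon-related transcription factor genes, Irf7, which is itself interferon-induced, had 11.6 FPKM with PRP against 3.18 FPKM in the control (ratio 3.65, interval 3.13 to 4.27). Irf1 had 15.4 and 6.06 FPKM (ratio 2.55), with no interval because its reads did not come out whole. Irf3 had 3.76 and 4.195 FPKM (ratio 0.896, 0.750 to 1.07), which included no change.

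Several cytokines that induce chemokines had few or no reads. No read fell on Ifng in either library. Tnf had 14 and 4 reads, Il1b had 9 and 2, Il1a had 2 and 0 and Ifnb1 had 6 and 2, and the intervals of all of them included no change. These 5 genes were named after their values were seen. Of the 20 genes for inducing cytokines and receptors in the files, 14 passed the filter and none was 2-fold higher or lower. Of all genes above the filter, 2.00% were higher and 0.828% lower by that measure, so this is no result about the list. Il6 had 3.83 FPKM with PRP against 2.09 FPKM in the control (ratio 1.83, interval 1.41 to 2.40). Il17ra, the receptor chain through which IL-17 raises CXCL1 and CXCL5, had 8.10 and 5.46 FPKM (ratio 1.48, 1.36 to 1.62), and Tlr2 had 1.19 and 0.855 FPKM (ratio 1.39, 0.944 to 2.07). The receptor genes Tnfrsf1a (15.7 and 20.7 FPKM, ratio 0.757, 0.688 to 0.833) and Il1r1 (3.91 and 4.95 FPKM, ratio 0.791, 0.699 to 0.895) were lower. Tnfrsf1b had a ratio of 1.002 (0.884 to 1.14).

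**Figure D5:**
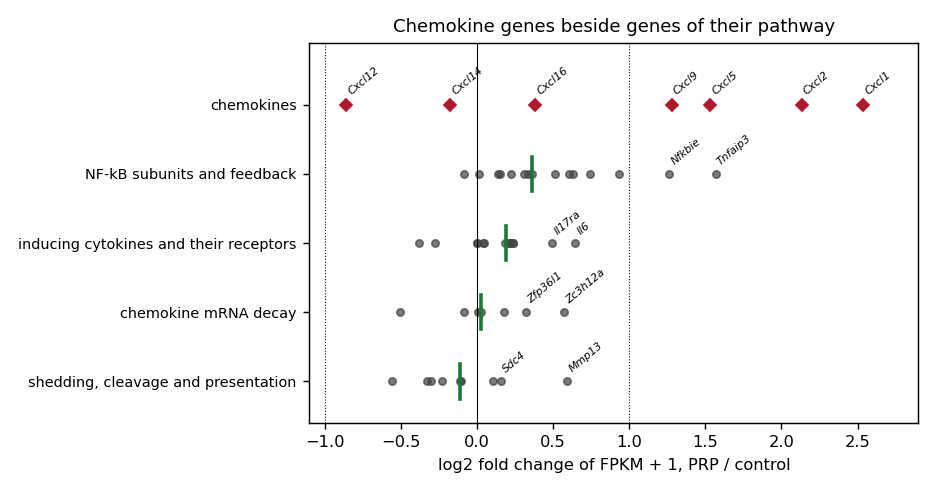
Log2 fold change of FPKM + 1, PRP over control, of the 7 chemokine genes above the filter (red diamonds) and of the genes above the filter in 4 pathway lists (grey points, with the median of each list as a green bar). Dotted lines mark 2-fold, and the 2 highest genes of each list are named. The 2 highest NF-κB genes lie past the right dotted line, as do 4 chemokine genes.

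Chemokine mRNAs of the neutrophil-attracting group are known to be short-lived because of AU-rich elements in their 3′UTR, which recruit the decay factor ZFP36. The pentamer ATTTA was counted on the sense strand of the longest annotated 3′UTR (GENCODE M21). Cxcl1 had 7 copies in 592 bases, or 11.8 per kb, a density that 0.433% of 19150 protein-coding genes reached. Cxcl3 had 5 copies in 645 bases and Cxcl2 had 11 in 1494 bases, densities that 1.90% and 2.29% of genes reached. Cxcl5 had 4.50 per kb, a less unusual density that 9.36% of genes reached. Cxcl10 had 3.01 per kb, Cxcl16 had 1.41 and Cxcl9 had 1.22, where the median gene had 1.36. Cxcl12, Cx3cl1 and Cxcl14 had 0.771, 0.534 and 0 per kb. All 4 neutrophil-attracting genes hence stood above the other 6 in this density.

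The longest stretches of joined ATTTA copies were those of Cxcl1 and Cxcl2, which are shown because they carry the element most plainly. The joined copies, 2 in Cxcl1 and 3 in Cxcl2, are in capitals.
Cxcl1, chr5:90892603-90892627, plus strand: agggtcctATTTATTTAtgtattta
Cxcl2, chr5:90905336-90905364, plus strand: atctatgtATTTATTTATTTAttaattcc
They start at base 88 and base 900 after the stop codon. Of the 7 genes for chemokine mRNA decay, all passed the filter and none was 2-fold higher or lower, with a median log2 fold change of 0.03. The absence of calls is near the 2.00% and 0.828% of all genes and is no result about the decay genes. Zc3h12a, which encodes the nuclease Regnase-1, had 2.43 FPKM with PRP against 1.31 FPKM in the control (ratio 1.85, interval 1.37 to 2.53). Khsrp, a further decay factor, was lower, at 8.18 and 12.04 FPKM (ratio 0.679, 0.614 to 0.750). Zfp36 had 1.87 and 1.54 FPKM (ratio 1.22, 0.927 to 1.61), which included no change, but its interval on reads, from 1.006 to 1.48, did not. Zfp36l1 had a ratio of 1.27 (1.14 to 1.43), Zfp36l2 of 0.937 (0.844 to 1.04) and Traf3ip2 of 1.01 (0.868 to 1.17).

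Of 11 genes for shedding, cleavage and presentation in the files, 9 passed the filter and none was 2-fold higher or lower, with a median log2 fold change of -0.11. Here too the absence of calls is near the 2.00% and 0.828% of all genes and is no result about the list. Mmp2, a protease that inactivates CXCL12 by cleavage, had 79.6 FPKM with PRP against 117.4 FPKM in the control (ratio 0.678, interval 0.654 to 0.703). Its activator Mmp14 had a ratio of 0.793 (0.767 to 0.821). Mmp13, a collagenase, was higher, at 3.95 and 2.28 FPKM (ratio 1.73, 1.37 to 2.22). The syndecans, heparan sulfate carriers that bind chemokines at the cell surface, moved apart, with a ratio of 1.12 (1.07 to 1.16) for Sdc4 and of 0.794 (0.715 to 0.882) for Sdc1. Hs6st1 had a ratio of 1.101 (0.938 to 1.29). Adam10 and Adam17, the sheddases of CX3CL1 and CXCL16, were named after their values were seen and had ratios of 0.922 (0.862 to 0.986) and 0.844 (0.797 to 0.894).

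Markers of other cell types were examined by their summed levels. Of all genes with whole reads, the intervals of 14.6% lay above 1 and those of 13.9% below 1. A single such interval in a list of 6 or 8 markers is near these shares and is no result about the list. The antibodies the study lists for the sort include those to CD45 and CD31, by which leukocytes and endothelial cells can be removed, beside CD140a and Sca-1 (the products of Pdgfra and Ly6a). The 8 macrophage markers summed to 11.4 FPKM in both libraries, and 1 interval lay above 1 and 1 below, with Ptprc, the leukocyte antigen CD45, at 0.0109 and 0.0192 FPKM. Cd68 was higher in the PRP library (4.56 and 2.31 FPKM) and Lyz2 was lower (4.91 and 7.57 FPKM). The 8 neutrophil markers summed to 2.73 FPKM with PRP against 1.40 FPKM in the control, with Ly6g and Csf3r at 0 in both. S100a8 had 47 and 2 reads, the 1 neutrophil marker with an interval above 1, and S100a9 had 18 and 22. The 6 endothelial markers summed to 9.59 and 5.46 FPKM, and the intervals of 4 of them, Kdr, Tek, Pecam1 and Vwf, lay above 1, as did those of 14.6% of all genes with whole reads. The VEGF receptor gene Kdr had 4.23 and 1.499 FPKM and Pecam1 had 0.188 and 0.0470 FPKM, while the defining marker Cdh5 had 0.0949 and 0.0976 FPKM. The 5 T and NK markers summed to 0.0682 and 0.0224 FPKM, with Cd3g and Klrb1c at 0 in both. The 6 platelet markers summed to 2.904 and 2.54 FPKM, with Ppbp and Gp9 at 0 and 1 interval (Itga2b) above 1, and the 4 myogenic markers in the files summed to 2.91 and 3.43 FPKM, with Pax7 and Myog at 0. The part of these markers in the higher chemokine levels was not tested.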

How the data were processed

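RNA-seq was performed on 1 PRP-treated and 1 control culture of FAPs. Per the labels and the study's methods, the authors trimmed reads with fastp 0.23.4, aligned them to mm10 with STAR 2.5.3a and used featureCounts to obtain counts. The authors deposited FPKM for 44291 genes per library. The annotation release and the step from counts to FPKM are not given in the sources used here.

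Gene identifiers were matched to GENCODE M21 (GRCm38, mm10), and 41492 genes (93.7%) had an entry. Read numbers were recovered from FPKM and the summed exon length. Of 28160 genes above 0 with a length, 26406 (93.8%) were whole in both libraries within 0.001 reads. The excess of even read numbers (79.3% and 80.3% of genes with up to 8 reads) led to intervals on fragments, that is reads divided by 2. No count test was run. The log2 fold change used a pseudocount of 1 and a filter at a mean FPKM of 1.

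The named genes are the 10 chemokine genes, the other CXC chemokine and receptor genes, neighbours within 100 kb above the filter, and the 3 highest and 3 lowest of each pathway list, of which Irf7, Irf1 and Irf3 are given from the list that is not reported. The members and lists were chosen with earlier results of these data known. Alternatives were pseudocounts, filters, thresholds, rescaling and centring, and, chosen after seeing the data, coding transcript lengths, intervals on reads and calls by interval. Python 3.11.15, NumPy 2.4.6, pandas 2.3.3, SciPy 1.17.1 and matplotlib 3.10.9 were used, and the procedures were tested on simulated data. PCR duplicates are not accounted for. A gene list and a promoter motif that were examined are not reported here.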

Additional observations from a re-analysis of the deposited data

How the results depend on the processing

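No fold change of a chemokine gene turned its direction under any of the 5 alternatives for pseudocount, rescaling and centring. Of 50 such values, 10 moved by more than the mean distance, on the log2 scale, from the gene's ratio to the bounds of its interval. With a pseudocount of 0.1 the median log2 fold change of the 3 neutrophil-attracting genes above the filter was 2.73, and with a pseudocount of 5 it was 0.96. Cxcl9, the only interferon-induced gene above the filter, had 2.23 and 0.47, against 1.28 as reported. Rescaling to a common sum gave a median of 2.66 for the neutrophil-attracting genes. Rescaling without mitochondrial genes and the 50 most abundant genes gave 2.67 for them and 1.95 for Cxcl9. Under these rescalings the fixed pseudocount is smaller relative to the values.

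The number of chemokine genes at least 2-fold higher, 4 as reported, was 1 with a pseudocount of 5 (Cxcl1, with 0.627% of all genes called), 2 with the filter raised to 5 FPKM (2.19%) and 2 at a 4-fold threshold (0.172%). It was 7 when called by an interval above 1 (14.6%). The number lower was 1 (Cxcl12) at a 1.5-fold threshold (4.57%) and 1 when called by an interval below 1 (13.9%), against 0. The filter at 5 FPKM left no interferon-induced gene and hence no median for them. Intervals on reads in place of fragments, chosen after seeing the data as were the calls by interval, put Cx3cl1 below 1 (0.501 to 0.973) and left the other 9 genes on their side of 1. No paired analysis was possible because no group holds more than 1 library.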

Other observations

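The study names the microRNAs let-7f-5p and miR-16-5p as exosome cargo. Their mature sequences in mouse (RefSeq, GRCm38.p6) are shown with the seed, bases 2 to 8, in capitals.
mmu-let-7f-5p: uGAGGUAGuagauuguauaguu
mmu-miR-16-5p: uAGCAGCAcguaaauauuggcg
The 7-base matches to these seeds, CTACCTC and TGCTGCT, were searched on the sense strand of the longest 3′UTR of each chemokine gene. Of 19150 protein-coding genes with a 3′UTR of at least 100 bases, 9.78% held the first and 21.9% the second. The 6 inducible genes held no let-7 match, and 1 miR-16 match in Cxcl9. Cxcl12, which has the longest 3′UTR of the family (5188 bases), held 1 let-7 and 2 miR-16 matches, Cxcl16 held 1 let-7 match and Cx3cl1 held 1 miR-16 match. The let-7 matches of Cxcl12 and Cxcl16 are shown with the match in capitals.
Cxcl12, chr6:117179656-117179684, plus strand: gggtgaactacCTACCTCtcctcaagaca
Cxcl16, chr11:70455210-70455238, minus strand: accctttgcctCTACCTCctagattctgc
The level of Cxcl12 was lower and that of Cxcl16 higher in the PRP library, so the genes with a let-7 match differed in direction. A match describes letters and is no evidence of repression.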
